A study of Mus musculus with 16 samples.

Results

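The TSH receptor and the cAMP signalling genes that act below it were followed in mouse thyroid as a set of 10 genes: Tshr, Gnas, Adcy3, Adcy6, Adcy9, Pde4d, Pde8b, Pde10a, Prkar1a and Crem. They were picked by name, as parts of 1 signalling route, with earlier results of these data known. All 10 were found among the 21640 genes of the count table. Each was compared between diets, within 3 weeks and within 6 weeks on the diet. The mice were wild-type (WT) male C57Bl/6J mice that were 8 weeks old when the diets began. Control mice ate chow (CD), and the others received the high-fat food together with sucrose water (HF+SD). There were 4 mice in each of the 4 groups, with mice M53, M54, M55 and M96 on the CD and M7, M19y, M20y and M31 on the HF+SD for 3 weeks. The 6-week CD group held M22, M43, M45 and M48, and M5, M18, M34 and M35 had 6 weeks of HF+SD. Each library was made from poly(A) RNA of the thyroid of 1 mouse, and the library project number changed with the time point. Levels were therefore not tested between 3 and 6 weeks.

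TSH from the pituitary binds its receptor on the thyrocyte, the cell that makes thyroid hormone. The receptor (Tshr) couples mainly to the stimulatory G protein, whose alpha subunit is encoded by Gnas, and the G protein turns on adenylyl cyclases (Adcy genes) that make cAMP. cAMP frees the catalytic subunits of protein kinase A from regulatory subunits such as Prkar1a, phosphodiesterases (Pde genes) break cAMP down, and factors of the CREB family, Crem among them, bind the cAMP response element in DNA. In the thyroid this route drives iodide uptake, hormone synthesis and growth of the gland, and activating changes in Tshr or Gnas are a known cause of overactive thyroid nodules.

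Because the route ends at the cAMP response element, its letters were looked for in front of the member genes. The search covered the 250 bases before each start in RefSeq (build GRCm38.p6), and 21 such windows were listed for 7 of the 10 genes, that is for all but Tshr, Adcy6 and Crem. The full element TGACGTCA reads the same on both strands, and its core is TGACG, or CGTCA on the other strand, so that each full element also holds both cores. The full element occurred before 1 of the 7 genes, Prkar1a, and in at least 1 window of 1.77% of the 27025 genes with a window. A gene with more windows has more chances of a match. Prkar1a had 6 windows and Gnas 4, while all 27025 genes had 32851, so these shares per gene are not on an equal footing. Of all windows, 1.55% held the full element and 17.8% a core. A core occurred before 3 of the 7 genes, Gnas, Prkar1a and Adcy9, and before 19.8% of those 27025 genes. The 30 bases around each match for the G protein subunit and the kinase subunit, the genes of these 3 that passed the diet test at 6 weeks, are printed in the direction of the gene with the match in capitals. They are descriptions of letters and not of bound sites.
Prkar1a, full element, chr11:109650889-109650918 (plus strand), 49 to 42 bases before a start: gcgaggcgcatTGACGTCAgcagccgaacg
Prkar1a, core, chr11:109650749-109650778 (plus strand), 100 to 96 bases before a start: ggttctagctagaTGACGacgggctaaggg
Prkar1a, core, chr11:109649199-109649228 (plus strand), 151 to 147 bases before a start: gtttgcttttattCGTCAgtgttaatacag
Gnas, core, chr2:174327698-174327727 (plus strand), 38 to 34 bases before a start: gaagaggttggggCGTCAtcaggctggtta
Gnas, core, chr2:174329777-174329806 (plus strand), 216 to 212 bases before a start: tcgtgtgaggggtCGTCAccaccgcggggc

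Library totals ran from 30025256 to 48508653 counts. All 9 thyrocyte markers (Pax8, Nkx2-1, Foxe1, Hhex, Cdh16, Epcam, Iyd, Duoxa2 and Slc26a4) had counts in each of the 16 libraries, and they took 0.294 to 0.402% of counts (CD) and 0.399 to 0.469% (HF+SD) at 3 weeks and 0.126 to 0.349% (CD) and 0.416 to 0.494% (HF+SD) at 6 weeks, with 3 and 4 of the 9 passing as higher. RNA of other tissues differed between the diets too. The 26 skeletal muscle markers took 0.108% of the counts of the 6-week CD mouse M22, 3.73% for M43, 15.9% for M45 and 11.4% for M48, against 0.134 to 0.443% in the 6-week HF+SD mice, and 25 of 25 tested passed as lower. The 3-week range was 0.0119 to 0.0169% (CD) and 0.0212 to 0.0247% (HF+SD), with 3 of 22 higher and Tnni1 at 0 in all 4 CD libraries. The 8 endothelial markers took 0.0243 to 0.0506% (CD) and 0.122 to 0.142% (HF+SD) at 6 weeks, and all 8 passed as higher at both time points, as did 3 (3 weeks) and 6 (6 weeks) of 7 pericyte and smooth muscle markers. White adipocyte markers took 0.0851 to 0.204% (CD) and 0.0576 to 0.105% (HF+SD) at 6 weeks, and 6 of 8 were lower at both times, as were 5 of 6 and then 5 of 5 brown adipocyte markers. Of the parathyroid markers 0 of 3 passed at either time, of the immune cell markers 0 of 7 and then 2 of 6 as higher, and of the fibroblast markers 3 of 6 as higher and then 1 of 6 as lower. In whole tissue, a change in the number of cells of a type and a change in the RNA of each cell cannot be told apart.

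After 6 weeks, Tshr, Prkar1a and Pde8b were higher on the HF+SD and Gnas was lower, so 4 of the 10 genes passed an adjusted p under 0.05 (edgeR's quasi-likelihood test, adjusted over all 18249 genes tested). Of all those genes, 21.5% passed, 12% as higher and 9.55% as lower. In 5 of the 10 the 2 diets did not overlap, against 23.8% of all genes. The median log2 fold change of the 10 genes was 0.38, beside -0.01 for all genes tested. With the 2 most muscle-rich CD mice (M45 and M48) left out, 2 genes passed, Tshr and Pde8b, where 10.4% of 18878 genes did. Scaled to the 9 thyrocyte markers 0 were higher and 6 lower, where 78.3% of all genes passed, 13806 of 18249 as lower. Scaled to the 4 thyrocyte transcription factors among those markers 1 was higher and 2 were lower, where 10.3% of all genes passed. After 3 weeks only Tshr passed, at an adjusted p just under 0.05, where 14.9% of 17238 genes passed (9.07% as higher and 5.78% as lower). Adcy3 was the 1 gene of the 10 without overlap at 3 weeks, against 23.6% of all genes, and the median log2 fold change was 0.21 beside -0.01 for all genes. At 6 weeks the share of the 10 genes called lay above that of all genes under the standard scaling. It also lay above without M45 and M48 and with the 4 transcription factors, and it lay below with the 9 markers. With 10 genes, these counts are too few to be read as a result about the set at either time. DESeq2's Wald test called 3 of the 10 as higher and 1 as lower at 3 weeks, where 21.5% of all genes passed.

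**Figure D1:**
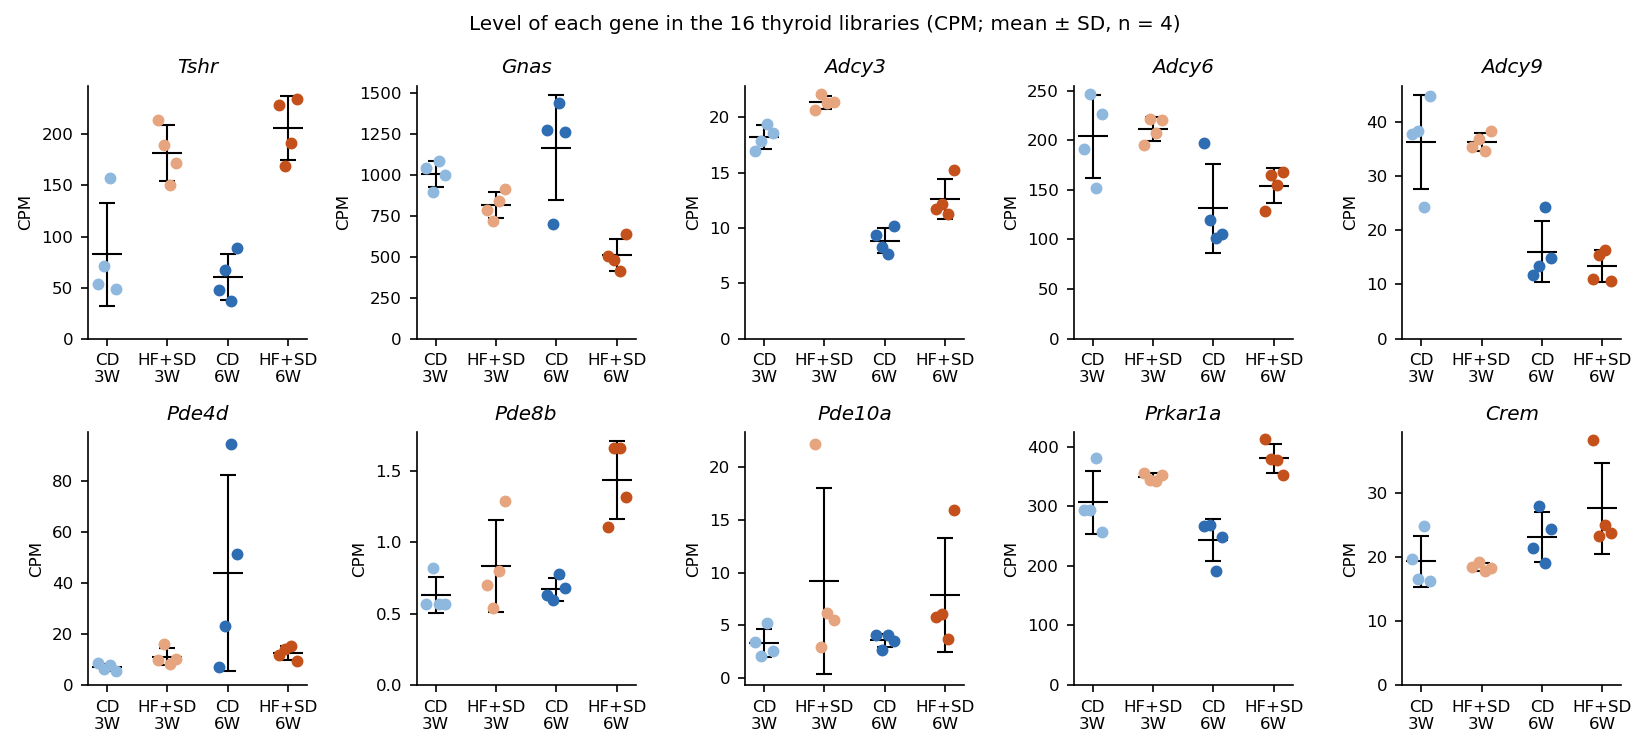
Level of each of the 10 genes in CPM (y axis) in the 16 thyroid libraries, grouped on the x axis by diet and weeks on the diet. Each point is 1 mouse, and the bars give the mean and SD of 4 mice. Tshr at 6 weeks spans 37.2 to 88.3 CPM (CD) and 169 to 234 CPM (HF+SD), and Gnas lies at 699 to 1438 and at 412 to 641.

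Tshr, the receptor itself, was 3.43-fold higher on the HF+SD at 6 weeks. Its level, in CPM (counts scaled to a common library size after TMM adjustment), was 47.6, 67.1, 37.2 and 88.3 in M22, M43, M45 and M48 (CD). On the HF+SD it was 229 in M5, 169 in M18, 192 in M34 and 234 in M35. The lowest HF+SD mouse therefore stood well above the highest CD mouse. The means were 60.0 ± 22.6 and 206 ± 31.3 CPM (SD, n = 4 each), and the log2 fold change was 1.78 (standard error 0.27, 95% confidence interval 1.18 to 2.38, edgeR adjusted p = 0.00239). An exact permutation test on log2 CPM gave a two-sided p of 0.0286, the smallest that 4 mice against 4 allow. It passed without any 1 of the 8 mice, at 1.59 to 2.02. Scaled to the 9 thyrocyte markers, some of which were themselves higher on the HF+SD, the median of all genes shifted by -1.04 and Tshr was at 0.69 (adjusted p = 0.0830). Scaled to the 4 transcription factors it was at 1.50 (adjusted p = 0.0358), with a shift of -0.23.

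At 3 weeks 1 CD mouse stood with the other diet. Tshr was at 53.5, 70.9, 157 and 48.3 CPM in M53, M54, M55 and M96 on the CD, and at 214, 190, 150 and 172 CPM in M7, M19y, M20y and M31 on the HF+SD. Mouse M55 thus lay above the lowest HF+SD mouse, M20y, and the other 3 CD mice lay below all 4. The log2 fold change was 1.14 (standard error 0.34, 95% confidence interval 0.38 to 1.89, edgeR adjusted p = 0.0493). The exact permutation test gave a two-sided p of 0.0571. Tshr was not called at 3 weeks with DESeq2 size factors in edgeR, nor when scaled to the 4 transcription factors. Without M55 the log2 fold change was 1.66 (adjusted p = 0.000274), and without any 1 of the other 7 mice it was 0.95 to 1.22 with adjusted p-values of 0.0777 to 0.110. It was at 0.49 (adjusted p = 0.197) when scaled to the 9 thyrocyte markers, where the median of all genes shifted by -0.63.

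Gnas, the stimulatory alpha subunit that couples the receptor to the cyclases, moved the other way. At 6 weeks it was at 1272, 699, 1438 and 1260 CPM in M22, M43, M45 and M48 (CD), and at 505, 481, 412 and 641 CPM in the HF+SD mice M5, M18, M34 and M35. The groups did not overlap, and M43 was the CD mouse nearest to the other diet. Gnas fell by 1.20 on the log2 scale (standard error 0.25, edgeR adjusted p = 0.0116, exact permutation p = 0.0286). It stayed called with each mouse left out (-1.41 to -1.10). Scaled to the thyrocyte transcription factors it was at -1.38 and called, with a shift of all genes of -0.23. Scaled to all the thyrocyte markers it was at -2.26 and called. That scaling shifted the median of all genes by -1.04 and called 13806 of 18249 genes as lower. The Gnas call under it is therefore no separate test of a fall. Without both M45 and M48 Gnas was at -0.94 (adjusted p = 0.0575). At 3 weeks the levels were 1042, 895, 1085 and 1003 CPM on the CD (M53, M54, M55, M96) and 786, 721, 843 and 914 on the HF+SD (M7, M19y, M20y, M31). Only M31 reached the lowest CD mouse, and the log2 fold change of -0.30 (95% confidence interval -0.52 to -0.08) did not pass (edgeR adjusted p = 0.0652). The Gnas locus is imprinted and gives several transcripts from separate starts, with an antisense RNA among them. The deposited table has 1 value per gene and the use of strand in the counting is not stated, so these counts cannot be split between those transcripts. The 5 C cell markers, another hormone-making cell type of the gland, took 0.436 to 1.19% of counts (CD) and 0.434 to 0.508% (HF+SD) at 6 weeks, with 2 of 5 lower, and at 3 weeks 1 of 5 was higher and 2 were lower. The part of C cells in the Gnas difference was not tested.

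The ratio of receptor to G protein within a library needs no scaling between libraries. The ratios given here were chosen after the levels had been seen and are a description, with no test. Counts of Tshr per kilobase of exon, divided by those of Gnas, were 0.0695, 0.178, 0.0481 and 0.130 in M22, M43, M45 and M48 on the CD at 6 weeks. On the HF+SD the ratio was 0.844, 0.652, 0.866 and 0.680 in M5, M18, M34 and M35. After 3 weeks it was 0.0955, 0.147, 0.270 and 0.0896 in the CD mice and 0.507, 0.490, 0.332 and 0.350 in the HF+SD mice, so even M55 lay below all 4 HF+SD mice. The log2 difference of the ratio was 3.01 (standard error 0.44) at 6 weeks and 1.60 (standard error 0.40) at 3 weeks. At 6 weeks Tshr was already higher and Gnas lower without overlap, so their ratio had to keep the diets apart. The same holds for Prkar1a over Gnas at 6 weeks, where the log2 difference was 1.82, and at 3 weeks it was 0.51. Against Pax8, a transcription factor that marks thyrocytes, the log2 difference at 6 weeks was 1.80 for Tshr (standard error 0.41) and -1.21 for Gnas (standard error 0.32), without overlap between diets. At 3 weeks the ratios to Pax8 overlapped, with log2 differences of 1.09 for Tshr (standard error 0.55) and -0.51 for Gnas (standard error 0.26).

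**Figure D2:**
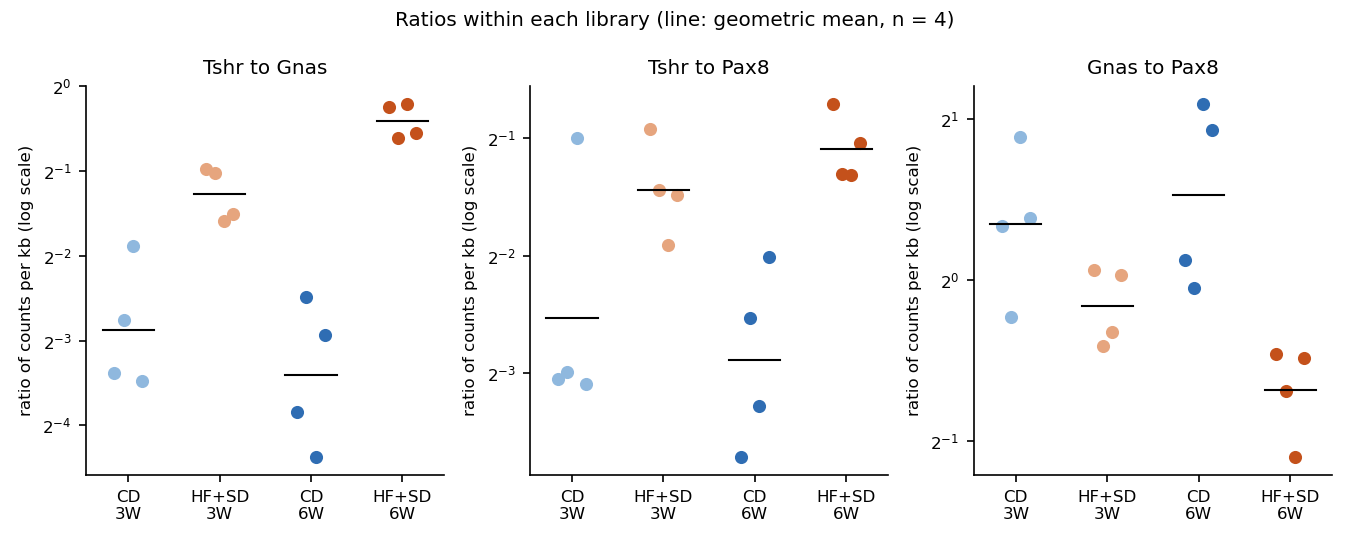
Ratios of counts per kilobase within each library (y axes, log scale) for Tshr to Gnas, Tshr to Pax8 and Gnas to Pax8, by diet and weeks on the diet (x axis), with 1 point a mouse and a line at the geometric mean of 4. The ratio of Tshr to Gnas has geometric means of 0.136 (CD) and 0.412 (HF+SD) at 3 weeks and of 0.0939 and 0.755 at 6 weeks, and the diets do not overlap.

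Of the 3 adenylyl cyclases, Adcy3 was the 1 whose levels did not overlap between diets, and none of the 3 passed the test at either time. Adcy3 was at 9.33, 8.31, 7.63 and 10.1 CPM in M22, M43, M45 and M48 and at 11.7, 12.1, 11.3 and 15.3 CPM in M5, M18, M34 and M35 at 6 weeks. No CD mouse reached the lowest HF+SD mouse, at a log2 fold change of 0.51 (95% confidence interval 0.14 to 0.87, edgeR adjusted p = 0.0523), which reversed to -0.55 when libraries were scaled to the 9 thyrocyte markers. The 3-week ranges were 17.0 to 19.4 CPM (CD) and 20.7 to 22.1 CPM (HF+SD), with a log2 fold change of 0.23 (95% confidence interval 0.06 to 0.40, edgeR adjusted p = 0.0703) that reversed to -0.40 under the same scaling.

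Adcy6 and Adcy9, both of them cyclases that calcium or its signals restrain, did not pass at either time point. Adcy6 spanned 102 to 198 CPM (CD, M22 highest) and 129 to 168 CPM (HF+SD) at 6 weeks. Its log2 fold changes were 0.23 at 6 weeks (95% confidence interval -0.27 to 0.73, edgeR adjusted p = 0.489) and 0.05 at 3 weeks (-0.26 to 0.36, adjusted p = 0.833), and they turned to -0.75 (adjusted p = 0.00368) and -0.56 when scaled to the 9 thyrocyte markers. The median of all genes shifted by -1.04 and -0.63 under that scaling. Without M22, the CD mouse with the least muscle RNA at 6 weeks, Adcy6 passed at 0.50 (adjusted p = 0.0279), and without M45 and M48 it was at -0.03. Adcy9 spanned 11.8 to 24.4 CPM (CD, M45 highest) and 10.7 to 16.5 CPM (HF+SD) at 6 weeks, with a log2 fold change of -0.26 (-0.84 to 0.32, adjusted p = 0.496) that was 0.11 without M45 and M48. Its 3-week means were 36.4 ± 8.62 and 36.3 ± 1.60 CPM (SD, n = 4 each), at a log2 fold change of -0.00 (-0.35 to 0.35). The intervals leave room for changes of either sign.

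Per kilobase of exon, Adcy6 was the most abundant of the 10 cyclases (Adcy1 to Adcy10) in each group. It made up 65.6% ± 3.81 (SD, n = 4) of their summed level on the CD and 63.0% ± 1.94 in HF+SD mice at 3 weeks. Adcy9 was next at 15.2% ± 1.93 and 14.2% ± 0.297, and Adcy3 took 6.55% ± 1.39 and 6.93% ± 0.236. At 6 weeks on the CD, Adcy2 took 3.32 to 38.7% of the sum, and the share of Adcy6 ranged from 37.0 to 75.0%. Adcy2 stood at 5.42, 17.3, 66.1 and 47.1 CPM in M22, M43, M45 and M48, in the same order as their muscle share.

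Of the 3 phosphodiesterases, Pde8b, a cAMP-specific enzyme that the inhibitor IBMX does not block, rose at 6 weeks from a very low level. It had 22, 26, 24 and 24 counts in M22, M43, M45 and M48 (0.631, 0.594, 0.780 and 0.682 CPM) and 42, 53, 57 and 49 counts in M5, M18, M34 and M35 (1.11, 1.66, 1.66 and 1.32 CPM). The groups did not overlap, and the log2 fold change was 1.09 (standard error 0.22, edgeR adjusted p = 0.0105; exact permutation p = 0.0286). It did not pass with the muscle score as a covariate (1.13, adjusted p = 0.0647), scaled to the 4 transcription factors (0.85, adjusted p = 0.159) or scaled to the 9 thyrocyte markers (0.04, adjusted p = 0.912). After 3 weeks the levels overlapped, at 0.566 to 0.818 CPM (CD) and 0.537 to 1.29 CPM (HF+SD, M31 highest), with a log2 fold change of 0.41 (adjusted p = 0.394) that turned to -0.20 under that scaling. Counts of 21 to 61 a library limit the precision for this gene.

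Pde4d, a member of the family that most cAMP breakdown in many cells depends on, differed mostly among the CD mice. Its 6-week levels were 7.0, 23.1, 94.6 and 51.3 CPM for M22, M43, M45 and M48, which is also the order of their muscle share. The HF+SD mice lay between 9.37 and 15.2 CPM, above M22 and below the other 3. The log2 fold change was -1.80 (95% confidence interval -3.22 to -0.39, edgeR adjusted p = 0.0703). It was at -0.25 without M45 and M48 (adjusted p = 0.774), at -2.15 without M22 (adjusted p = 0.00424), and it reversed to 0.37 once the muscle score was added as a covariate (adjusted p = 0.615). Among the 3-week libraries, where muscle markers took at most 0.0247% of counts, Pde4d was at 5.35 to 8.51 CPM (CD) and 8.14 to 15.9 CPM (HF+SD; log2 fold change 0.67, 95% confidence interval 0.17 to 1.17, adjusted p = 0.0727).

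**Figure D3:**
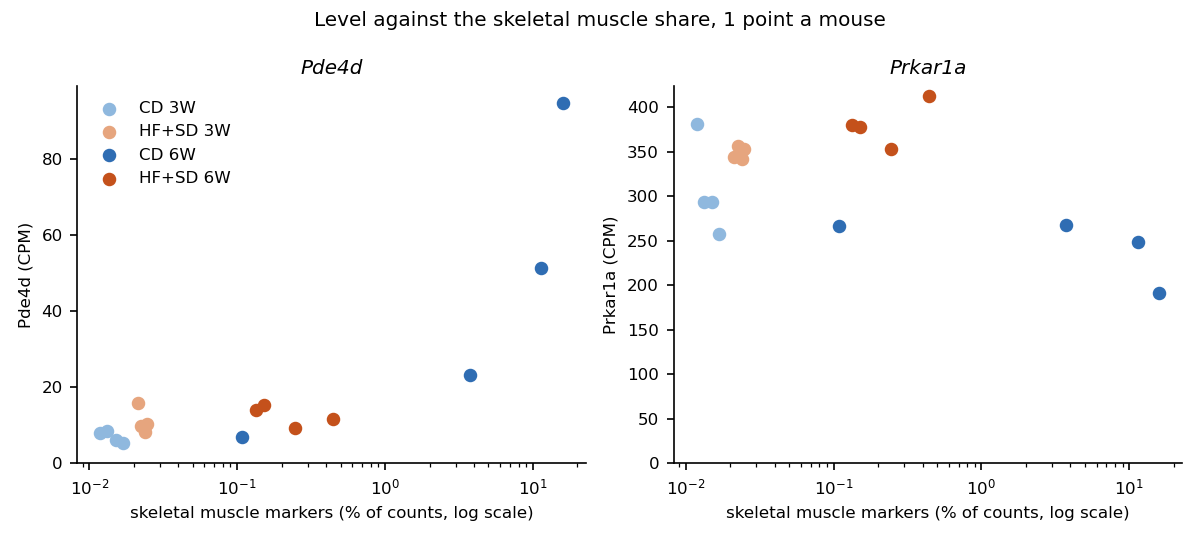
Level of Pde4d and of Prkar1a (y axes, CPM) against the share of counts taken by 26 skeletal muscle markers (x axes, percent, log scale), with 1 point a mouse, coloured by diet and weeks on the diet. Pde4d stands at 7.0, 23.1, 51.3 and 94.6 CPM in the 4 CD mice at 6 weeks from the lowest to the highest muscle share, and Prkar1a at 6 weeks lies at 353 to 413 CPM in the 4 HF+SD mice and at 266 CPM in CD mouse M22, whose muscle share of 0.108% was the lowest of its group.

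Pde10a, which breaks down both cAMP and cGMP, had 1 high mouse at each time point. After 3 weeks it was at 3.44, 2.12, 5.19 and 2.58 CPM in M53, M54, M55 and M96 and at 22.2, 2.92, 6.20 and 5.52 CPM in M7, M19y, M20y and M31. At 6 weeks M35 was at 15.9 CPM, the other HF+SD mice at 3.75 to 6.11 and the CD mice at 2.72 to 4.07. The diets overlapped both times, and neither log2 fold change passed (1.46 at 3 weeks, edgeR adjusted p = 0.115, and 1.14 at 6 weeks, adjusted p = 0.0786). Without M7 the first was 0.55 and without M35 the second was 0.55.

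Within the 16 cAMP phosphodiesterases measured, the 3 members were minor, with a highest mean share of 8.13% ± 5.80 (SD, n = 4) for Pde4d in the 6-week CD mice. Pde8a, Pde7b, Pde3b, Pde7a and Pde1a, none of them a member, carried most of the level per kilobase, and Pde8a alone made up 15.1% ± 3.91 (SD, n = 4) in CD mice and 24.5% ± 3.67 in HF+SD mice at 6 weeks. Pde8a, the close relative of Pde8b, passed as higher at 6 weeks (log2 fold change 0.77, edgeR adjusted p = 0.0169, which turned to -0.29 when scaled to the 9 thyrocyte markers) and at 3 weeks (0.71, adjusted p = 0.00105). It did not pass at 6 weeks with the muscle score in the fit (0.60, adjusted p = 0.130), nor at 3 weeks scaled to the 9 markers (0.09, adjusted p = 0.612) or to the 4 transcription factors (0.55, adjusted p = 0.269). Its values are given for this kinship and were picked after they had been seen.

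Prkar1a, the type I regulatory subunit that holds the kinase inactive until cAMP binds, was higher at 6 weeks in all 4 HF+SD mice under the standard scaling. Scaled to the 9 thyrocyte markers it was at -0.39 (adjusted p = 0.145), where the median of all genes shifted by -1.04. Its level was 266, 268, 192 and 249 CPM in M22, M43, M45 and M48, and 413, 380, 377 and 353 CPM in M5, M18, M34 and M35. The log2 fold change was 0.64 (standard error 0.15, 95% confidence interval 0.30 to 0.99, edgeR adjusted p = 0.0183; exact permutation p = 0.0286). It was 0.53 after adding the muscle score (adjusted p = 0.0882), 0.42 scaled to the 4 transcription factors (adjusted p = 0.540), 0.52 without M45 and M48 (adjusted p = 0.0510) and 0.65 and 0.66 without M18 or M34 (adjusted p = 0.0567 and 0.0547). At 3 weeks it stood at 293, 294, 381 and 257 CPM in CD mice and at 356, 344, 342 and 353 CPM in HF+SD mice. M55, the CD mouse with high Tshr, was again the highest CD mouse and stood above the other diet, and the log2 fold change of 0.19 did not pass (95% confidence interval -0.06 to 0.44, adjusted p = 0.292). Without M55 it was 0.31 and passed (adjusted p = 0.0113). With all mice and scaled to the 9 thyrocyte markers it was -0.45, where the median of all genes shifted by -0.63.

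As a share of the 6 protein kinase A subunits per kilobase, which again needs no scaling between libraries, Prkar1a took 49.2% ± 9.71 (SD, n = 4) in CD mice and 68.0% ± 2.53 in HF+SD mice at 6 weeks. The ranges, 36.6 to 57.3% and 64.7 to 70.3%, did not overlap. Prkar2a took 15.9% ± 9.72 of the sum in the 6-week CD mice, from 6.64 to 28.3%, and 7.96% ± 0.356 in HF+SD mice. The 3-week shares of Prkar1a were 51.6% ± 3.89 and 57.9% ± 0.545. The type II subunit Prkar2b, which is abundant in fat cells, took the reverse course, at 12.4% ± 2.62 and 6.02% ± 1.64 at 6 weeks and 11.8% ± 1.17 and 6.14% ± 1.73 at 3 weeks. White adipocyte markers, 6 of 8, were lower at each time point too, and their part in the Prkar2b share was not tested. The catalytic subunits Prkaca and Prkacb did not pass at either time point, with log2 fold changes of -0.27 (adjusted p = 0.333) and -0.02 (adjusted p = 0.918) at 6 weeks.

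Crem, a CREB family factor whose short forms repress cAMP-responsive genes, did not pass at either time point. It was at 21.3, 27.9, 19 and 24.3 CPM in M22, M43, M45 and M48 and at 38.3, 23.3, 25.0 and 23.7 CPM in M5, M18, M34 and M35 at 6 weeks. Mouse M5 stood apart from its group, and the rest overlapped (log2 fold change 0.25, 95% confidence interval -0.19 to 0.70, edgeR adjusted p = 0.389) around a fold change that turned to -0.79 when scaled to the 9 thyrocyte markers. Under that scaling the median of all genes shifted by -1.04. At 3 weeks the means were 19.3 ± 4.00 and 18.4 ± 0.618 CPM (SD, n = 4 each; log2 fold change -0.07, adjusted p = 0.748). The table gives 1 value for the gene, so long and short forms are counted together.

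**Figure D4:**
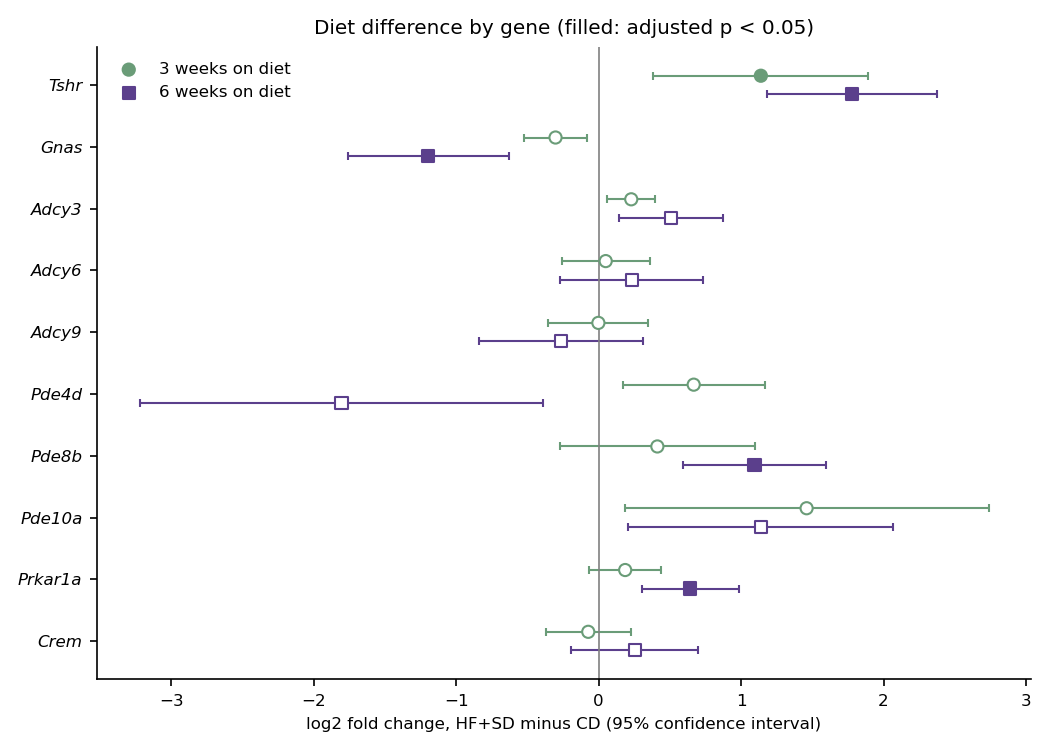
Log2 fold change of each gene, HF+SD minus CD (x axis), at 3 weeks (circles) and 6 weeks (squares), with 95% confidence intervals and filled symbols where the adjusted p was under 0.05. Tshr is filled at both times (1.14 and 1.78), Gnas is filled on the lower side at 6 weeks (-1.20), and Prkar1a (0.64, which turns to -0.39 when scaled to the 9 thyrocyte markers) and Pde8b (1.09) are filled on the higher side at 6 weeks.

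The diet effect was not shown to differ between 3 and 6 weeks for any of the 10 genes. The interaction term over all 16 libraries was called for 0.0792% of 18929 genes, 15 in all, and 0 of the 10 were among them in edgeR. The largest differences, 6 minus 3 weeks, were -2.55 for Pde4d (adjusted p = 0.0713) and -0.96 for Gnas (adjusted p = 0.0799) on the log2 scale, and that of Tshr was 0.59 (95% confidence interval -0.40 to 1.57, adjusted p = 0.487). Unadjusted, Pde4d, Gnas and Prkar1a had edgeR p-values under 0.05 (0.00306, 0.00470 and 0.0375).

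Ranked by CPM per kilobase of exon, Gnas and Prkar1a were the 2 most abundant of the 10 genes in each group, and Pde8b was the least. On the CD at 6 weeks Gnas was first at 104 ± 28.8 (SD, n = 4) and Prkar1a second at 56.4 ± 8.27, with no overlap between their mice. On the HF+SD the order was turned, with Prkar1a at 88.1 ± 5.66 and Gnas at 45.6 ± 8.60. Tshr followed Adcy6 on the CD, at 9.98 ± 3.75 behind 19.3 ± 6.62, and came before it on the HF+SD, at 34.3 ± 5.21 ahead of 22.7 ± 2.63. In that group Tshr and Gnas overlapped between mice, and Tshr and Adcy6 did not. At 3 weeks Gnas and Prkar1a overlapped in both diets, as did Adcy6 and Tshr. These levels rest on the union of the exons of each gene in GENCODE M21, which counts all isoforms. That union is 11186 bases for Gnas and 4321 for Prkar1a. In CPM, with no division by length, Gnas stood above Prkar1a in each group, at means of 510 and 381 on the HF+SD at 6 weeks. The place of Gnas in this ranking therefore depends on the length used.

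Genes that varied most like Tshr across mice were found by Pearson's r of log2 CPM, centred on each time point, over 16 libraries. The ranking took those of the 17024 genes tested at both times that carry a name. The 5 with the highest r were Uggt1 (r = 0.96), Gm31718 (0.96), Cers6 (0.96), Tspan31 (0.95) and Fxyd5 (0.94). Uggt1 encodes a folding sensor of the endoplasmic reticulum and Cers6 a ceramide synthase. At 6 weeks all 5 passed as higher, from 0.48 for Tspan31 to 2.00 for Gm31718 on the log2 scale, though Uggt1, Tspan31 and Fxyd5 turned to -0.54, -0.59 and -0.18 when scaled to the 9 thyrocyte markers. At 3 weeks Fxyd5 alone of the 5 passed (0.72, edgeR adjusted p = 0.00606). Among the members, Prkar1a ranked 75 in this order (r = 0.90), Adcy3 329 (0.85) and Gnas 16021 (-0.73). The points share the diet groups, so the r values describe those differences as well as the variation among mice.

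Other genes of the route were taken from 8 lists written by role, with 89 of 95 names found. The lists were written with earlier results of these data known, so the shares below are a description. At 6 weeks 30 of the 85 tested passed (35.3%, against 21.5% of all genes), 13 as higher and 17 as lower, and their median log2 fold change was 0.04. At 3 weeks 19 of 84 passed (22.6%, against 14.9%), 11 as higher and 8 as lower, with a median of -0.09. Without M45 and M48, 20 passed at 6 weeks, where 10.4% of all 18878 genes tested did. Genes named here passed with an absolute log2 fold change above 1, which 12.6% of all genes did at 6 weeks and 4.66% at 3 weeks, and showed no overlap between diets.

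Among the G protein subunits, 3 of 15 passed at 6 weeks and 3 of 16 at 3 weeks, all as higher under the standard scaling. Scaled to the 9 thyrocyte markers, 9 of 15 and 11 of 16 passed as lower. That scaling called 13806 of all 18249 genes as lower at 6 weeks and 11180 of 17238 at 3 weeks. Gng2, a gamma subunit, was at 12.3 ± 3.53 CPM in CD mice and 35.3 ± 6.22 in HF+SD mice (SD, n = 4; log2 fold change 1.52, edgeR adjusted p = 0.00180), and it was higher at 3 weeks as well (1.03, adjusted p = 0.000598). Gnb4, a beta subunit, was at 9.41 ± 0.627 and 24.5 ± 0.899 CPM at 6 weeks (log2 fold change 1.38, adjusted p = 0.000212). Its 3-week log2 fold change was 0.49 (adjusted p = 0.0885). The inhibitory alpha subunit Gnai2 made up the 3 (1.30, adjusted p = 0.000178).

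Of the 6 other cyclases, 1 was higher and 2 lower at 6 weeks, and 1 was higher and 1 lower at 3 weeks. Adcy4 rose from 7.84 ± 3.27 to 24.7 ± 4.66 CPM (SD, n = 4; log2 fold change 1.65, edgeR adjusted p = 0.00536), beside the endothelial markers, and the part of endothelial RNA in it was not tested. Adcy10, the soluble cyclase that bicarbonate stimulates, was lower at both times, at -2.65 on the log2 scale at 3 weeks (adjusted p = 0.00643) and -2.20 at 6 weeks (adjusted p = 0.00672). Its counts were low, 5 to 55 a library at 3 weeks and 7 to 88 at 6 weeks. Adcy2 was at -3.37 at 6 weeks (adjusted p = 0.00878), at -1.19 with the muscle score in the fit (adjusted p = 0.0353) and at -0.12 at 3 weeks (adjusted p = 0.716).

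Phosphodiesterases outside the 10 moved in both directions. At 6 weeks 4 of 12 were higher and 3 lower, and at 3 weeks 4 were higher and 1 lower. Scaled to the 9 thyrocyte markers, 1 was higher and 7 lower at 6 weeks, and 1 higher and 4 lower at 3 weeks. Of all genes, that scaling called 78.3% at 6 weeks and 67.4% at 3 weeks, most of them as lower. Pde4c rose from 5.67 ± 0.574 to 14.9 ± 1.88 CPM at 3 weeks (log2 fold change 1.39, edgeR adjusted p = 0.000274) and from 4.77 ± 1.18 to 20.8 ± 2.26 at 6 weeks (2.12, adjusted p = 0.000268; SD, n = 4). Pde3b, the insulin-regulated enzyme of fat cells, fell from 37.6 ± 5.62 to 17.4 ± 3.83 CPM at 3 weeks (-1.11, adjusted p = 0.00277), and at 6 weeks it was at -1.06 (adjusted p = 0.00189). Pde4b was higher at 3 weeks (1.08, adjusted p = 0.00820), and at 6 weeks it spread from 12.5 to 155 CPM over the CD mice and did not pass (-1.32, adjusted p = 0.180). Pde11a fell by 1.54 on the log2 scale at 6 weeks (adjusted p = 0.00704), with 7 to 32 counts a library.

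Of the other cAMP effectors, 2 were higher and 4 lower of 8 at 6 weeks, and 2 were higher and 1 lower of 6 at 3 weeks. Of 13 kinase anchors, 1 was higher and 4 lower at 6 weeks and 1 was lower at 3 weeks, and of 8 kinase subunits and inhibitors outside the 10, 3 were lower at 6 weeks and 1 at 3 weeks. With the muscle score in the 6-week fit, 2 effectors were higher and 0 lower, and 1 anchor was higher and 1 lower. Scaled to the 9 thyrocyte markers, 0 anchors were higher and 12 lower at 6 weeks, where 13806 of all 18249 genes were lower. Hcn2, a pacemaker channel that cAMP regulates, was at 11.5 to 29.0 CPM (CD) and 95.3 to 144 CPM (HF+SD) at 3 weeks, and at 2.99 to 5.48 and 34.2 to 48.5 CPM at 6 weeks. The log2 fold changes were 2.58 (standard error 0.26, edgeR adjusted p = 0.000421) and 3.50 (standard error 0.24, adjusted p = 0.000103), and with the muscle score in the 6-week fit it still passed (3.09). Rapgef4, which encodes the cAMP-activated exchange factor Epac2, was higher at both times (1.07, adjusted p = 0.000422, and 1.60, adjusted p = 0.000379). On the lower side at 6 weeks, Popdc2, a cAMP-binding membrane protein of striated muscle, was at -4.08 (adjusted p = 0.0125) and did not pass once the muscle score entered the fit (-1.22, adjusted p = 0.126). Popdc2 was lower at 3 weeks too (-0.97, edgeR adjusted p = 0.0388), where muscle markers took at most 0.0247% of counts. Its counts there were 27 to 52 a library (CD) and 19 to 26 (HF+SD). Akap5, an anchor for the kinase, fell by 1.33 at 3 weeks (adjusted p = 0.0320) and by 2.11 at 6 weeks (adjusted p = 0.00869), with 3 to 56 counts a library. The 3-week call held without M55 or M7 and was lost without any 1 of the other 6 mice (adjusted p up to 0.0880). Pkib, a kinase inhibitor peptide, fell by 1.63 at 6 weeks (adjusted p = 0.0383). It was at -0.96 without M22 and lost the call without M18, M34 or M35 (adjusted p up to 0.103).

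**Figure D5:**
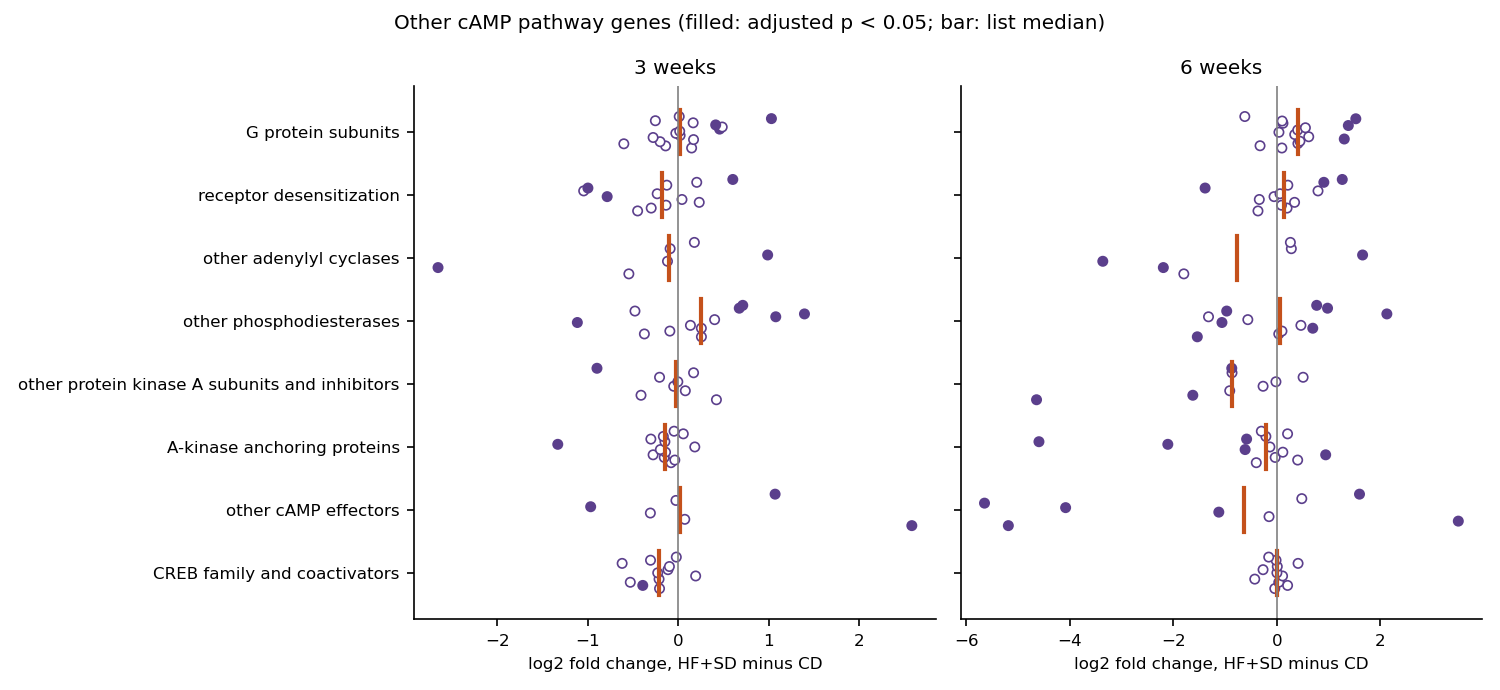
Log2 fold change, HF+SD minus CD (x axes), of the other cAMP pathway genes tested at 3 weeks (left) and 6 weeks (right), by list (y axis), with filled points where the adjusted p was under 0.05 and an orange bar at the list median. The 2 panels have different x ranges. Hcn2 is the point farthest to the right in both (2.58 and 3.50), and the genes near -4 to -6 at 6 weeks, Popdc2 at -4.08 among them, lie in the lists of effectors, anchors and kinase inhibitors.

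The CREB family and its coactivators, the factors at the end of the route, had no call at 6 weeks and 1 at 3 weeks. At 6 weeks 0 of 11 passed in edgeR, with a range of -0.43 to 0.41 and a median of -0.00 on the log2 scale, 0 had an unadjusted p under 0.05, and DESeq2's Wald test and limma each called 0 as well. Scaled to the 9 thyrocyte markers, 10 of the 11 passed as lower, beside a shift of all genes of -1.04. At 3 weeks 1 of 11 passed, Creb1 itself (-0.39, adjusted p = 0.0428), and 10 of the 11 had a negative log2 fold change around a median of -0.21, beside -0.01 for all genes. The 3-week calls were 3 with the Wald test and 2 with limma, all lower, 0 with the muscle score in the fit (Creb1 at -0.26, adjusted p = 0.267), 11 of 11 lower when scaled to the 9 thyrocyte markers and 0 when scaled to the 4 transcription factors. Of 12 genes of receptor desensitization, 2 were higher and 1 lower at 6 weeks, and 1 was higher and 2 lower at 3 weeks. Scaled to the 9 thyrocyte markers, 9 and 10 were lower. That scaling called 13806 of all 18249 genes as lower at 6 weeks and 11180 of 17238 at 3 weeks. Rgs2, which damps G protein signalling, fell by 1.00 at 3 weeks (adjusted p = 0.0116) and by 1.39 at 6 weeks (adjusted p = 0.00171), and Rgs5, a pericyte marker in another of the lists, was higher at both (0.60, adjusted p = 0.0123, which turned to -0.03 when scaled to the 9 thyrocyte markers, and 1.26, adjusted p = 0.00207). At 6 weeks Rgs5 was at 0.16 (adjusted p = 0.649) scaled to the 9 markers and at 0.96 (adjusted p = 0.195) scaled to the 4 transcription factors. Creb1, Gnai2, Rgs2 and Rgs5 were singled out after their values had been seen.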

How the data were processed

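Poly(A) RNA of the thyroid of 16 mice was sequenced, 1 library a mouse and 4 mice a group. Per the labels, reads were trimmed with Trim Galore 0.6.7 and aligned with STAR to build mm39, and DESeq2 1.36.0 in R 4.1.0 was used. The sources used here give no counter, annotation or strand setting. The authors deposited 1 table of raw whole-number counts per gene, which served as the main data, and 1 of normalized values (a signal equal to the count divided by 1 size factor per library), which served for 1 alternative. The study states fewer CD mice at 6 weeks than the 4 libraries deposited, and all 4 were used.

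Counts were tested within each time point with edgeR 4.0.16 (R 4.3.3) by the quasi-likelihood test, after filterByExpr and TMM scaling, with Benjamini-Hochberg adjustment over all genes tested and a call at an adjusted p under 0.05. Standard errors are the log2 fold change over the root of F, and log2 CPM used a prior count of 2. An exact permutation test, two-sided, was added for single genes. The interaction was fitted over 16 libraries. Alternatives were DESeq2 1.42.0, limma 3.58.1 on log2 of the normalized values plus 1, other scalings and filters, the mean log2 level of 26 muscle markers as a covariate, and leaving out mice. P-values set the difference between diets against the spread between these mice. Scripts were tested on simulated data.

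The members and all lists were chosen with earlier results of these data known. All 10 members are described. Other pathway genes are named by rule when called, with an absolute log2 fold change above 1 and no overlap, at most the 6 largest a direction and time. For Tshr the 5 genes of highest Pearson r are named. Names and exon lengths came from GENCODE M21 (20841 of 21640 genes named), and promoter sequences from RefSeq on GRCm38.p6, another build than that of the reads, so that they are not tied to read positions. Per-kilobase levels divide CPM by the union of exons.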

Additional observations from a re-analysis of the deposited data

Results flagged for a closer look

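Among the 40 sets of 4 mice that the 10 genes and 4 groups give, 2 held a mouse far from the other 3 by Dixon's ratio on log2 CPM at its 95% critical value, where about 1 in 20 sets is so marked by chance. Pde8b was at 0.818 CPM in the 3-week CD mouse M54, from 29 counts, while the other 3 mice of that group were at 0.566 to 0.569 CPM. Crem was at 38.3 CPM in the 6-week HF+SD mouse M5, and the other 3 were at 23.3 to 25.0 CPM. Neither gene passed the diet test in that comparison. On CPM itself the count was 3, with Pde10a at 22.2 CPM in the 3-week HF+SD mouse M7 added by a ratio just above the critical value.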

How the results depend on the processing

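No paired analysis was possible because the labels name each mouse singly and the groups share no replicate numbers. The cause of the changes below was not tested. At 3 weeks 2560 genes were called, and this became 803 with an absolute log2 fold change above 1, 1420 in 1 fit over 16 libraries, 1572 with the muscle covariate, 11619 scaled to the 9 thyrocyte markers (3.8% of calls higher, against 61.1%), 784 scaled to the 4 thyrocyte transcription factors (a scaling chosen after seeing the data) and 1448 to 3393 with 1 mouse left out. The 1 of 10 genes called became 0 with DESeq2 size factors (15% of all genes called) or the 4 factors (4.55%). It became 2 with upper-quartile factors (15.4%), 4 with DESeq2's Wald test (21.5%) and 6 with the 9 markers (67.4%). With 1 mouse left out it was 0 to 3, where 8.27 to 19.4% of all genes were called. The 19 other pathway genes became 8 with the fold rule, 65 with the 9 markers and 10 with the 4 factors (14 to 25 with 1 mouse left out). At 6 weeks 3927 genes were called, and this became 2308 with the fold rule, 6182 in 1 fit, 1988 with the muscle covariate, 14281 with the 9 markers (3.3% higher, against 55.6%), 1886 with the 4 factors (38.4% higher), 1957 without M45 and M48 and 1934 to 5743 with 1 mouse left out. The 4 genes of the 10 became 7 with the Wald test (28.3% of all genes called), 2 with the muscle covariate (10.9%) and 2 without M45 and M48 (10.4%). They became 6 with the 9 markers (78.3% of all genes), 0 higher and 6 lower, against 3 and 1. With the 4 factors they became 3 (10.3% of all genes), 1 higher and 2 lower. With 1 mouse left out 3 to 7 were called, where 10.4 to 30.8% of all genes were. The 30 other pathway genes became 68 with the 9 markers (20 to 41 with 1 mouse left out). The interaction called 15 genes, 0 with the muscle covariate, 1 with the 9 markers, 1 with the 4 factors and 1 to 2715 with 1 mouse left out, and 0 to 2 of the 10 genes.

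Scaled to the 9 markers, log2 fold changes reversed at 3 weeks for Adcy3 (-0.40), Adcy6 (-0.56), Pde8b (-0.20) and Prkar1a (-0.45), at 6 weeks for Adcy3 (-0.55), Adcy6 (-0.75), Prkar1a (-0.39) and Crem (-0.79), and between times for Adcy3 (-0.14), Adcy6 (-0.19) and Crem (-0.078). With the 4 factors, Adcy6 (-0.058) and Prkar1a (-0.0076) reversed at 3 weeks. With the muscle covariate, Adcy6 (-0.021) and Crem (0.10) reversed at 3 weeks, Adcy6 (-0.20), Adcy9 (0.089) and Pde4d (0.37) at 6 weeks, and Adcy6 (-0.33) and Adcy9 (0.22) between times. Without M45 and M48, Adcy6 (-0.032) and Adcy9 (0.11) reversed at 6 weeks. Adcy9 at 3 weeks, which was at -0.00, was 0.0061 with upper-quartile factors, 0.0051 with at least 10 counts in every library and 0.0062 with limma. With 1 mouse left out, the ranges crossed 0 at 3 weeks for Adcy6 (-0.069 to 0.15), Adcy9 (-0.15 to 0.12) and Crem (-0.15 to 0.072) and between times for Pde10a (-0.97 to 0.55). Of the within-time log2 fold changes of the 10 genes under alternatives, 302 kept direction and side of the threshold, 21 became called, 20 lost the call and 27 reversed, and of the differences between times 181 kept both, 3 became called and 6 reversed. Named pathway genes kept both in 348 and lost the call in 19.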
